A study of Homo sapiens with 12 samples.

Results

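HL60 cells given a combination treatment that includes 5-Aza-CdR were compared with HL60 cells given 5-Aza-CdR alone. The comparison rests on 4 of the series' 12 arrays, those whose labels name HL60: 2 combination arrays and 2 arrays of 5-Aza-CdR alone, numbered 1 and 2 in each group. Of 20545 gene symbols in the deposited table, all 19402 with HL60 values entered. Differences are in log2 units, combination minus 5-Aza-CdR, taken between arrays with the same replicate number, so that every gene has a pair 1 and a pair 2 difference. HL60 is a human line from a promyelocytic leukaemia that grows as immature granulocyte precursors and can be driven towards neutrophils or monocytes. 5-Aza-CdR (decitabine) is a cytosine analogue that is built into new DNA and traps DNA methyltransferases there. The labels give neither the second agent of the combination nor any dose or time; in the published study of these cell lines, which was not used here, that agent is vitamin C, a cofactor of the TET dioxygenases. The cells of both groups had received 5-Aza-CdR, so no value below is a response to 5-Aza-CdR itself. The series holds the same 2 treatments, with 2 arrays each, in SNU398 hepatocellular carcinoma cells and HCT116 colon carcinoma cells. Nothing in the labels says that arrays 1 and 2 came from separate cultures, and p-values measure the spread of these samples alone, which may be technical.

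Loss of DNA methylation can reactivate silent repeats and germline genes. Transcripts of such repeats can form double-stranded RNA, which the cytosolic helicases IFIH1 (MDA5) and DDX58 (RIG-I) detect; their signal activates the IRF and NF-kappaB transcription factors, interferons and, through the JAK-STAT pathway, the interferon-stimulated genes. Granulocyte precursors and monocytes also carry an inflammatory program of chemokines, granule proteins and MHC molecules that NF-kappaB and the myeloid transcription factors control.

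In both HL60 pairs the combination arrays stood higher for a small group of antiviral, antigen-presenting and chemokine genes, but no gene passed the test. limma, fitted to the 2 pair differences with the spread moderated over genes, called 0 of 19402 genes (0% of those tested) at an adjusted p under 0.05. The smallest adjusted p was 0.895 in limma, and 184 genes had an unadjusted p under 0.05. With the spread taken from the other lines, pair 2 alone gave 4503 calls in limma and pair 1 alone 0. Differences are therefore given below for each pair, and a gene that was higher or lower in both pairs is described as such without a call. By that count, 73 genes (0.376% of those tested) were at least 0.5 higher in both pairs and 7 (0.0361%) at least 0.5 lower; 45 of the 73 and 4 of the 7 had a mean log2 of at least 9. Of the 73 genes, 10 stand among the 116 measured genes of the lists of interferon signalling, nucleic acid sensing and MHC class I, 6 among the 50 of the NF-kappaB and cytokine lists, and 8 among the 101 of the myeloid lists; 42 stand in no list.

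The pairs differed in spread. Pair 1 had a median difference of -0.00 and an SD over genes of 0.158, and pair 2 had a median of 0.05 and an SD of 0.552. In pair 1, 137 genes were at least 0.5 higher and 49 at least 0.5 lower; in pair 2 these were 3468 and 2529. Across the 19402 genes, which are not independent, the differences of the 2 pairs correlated with a Pearson r of 0.083 and a Spearman rho of 0.059, and 10055 genes had the same sign. Above 0 in both pairs were 5437 genes (28.0%), and 4618 (23.8%) were below 0 in both. Centring each array on its median moved the median of all genes in pair 2 to -0.09 and left that of pair 1 at -0.00, so values of pair 2 near 0 depend on the scaling.

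**Figure D1:**
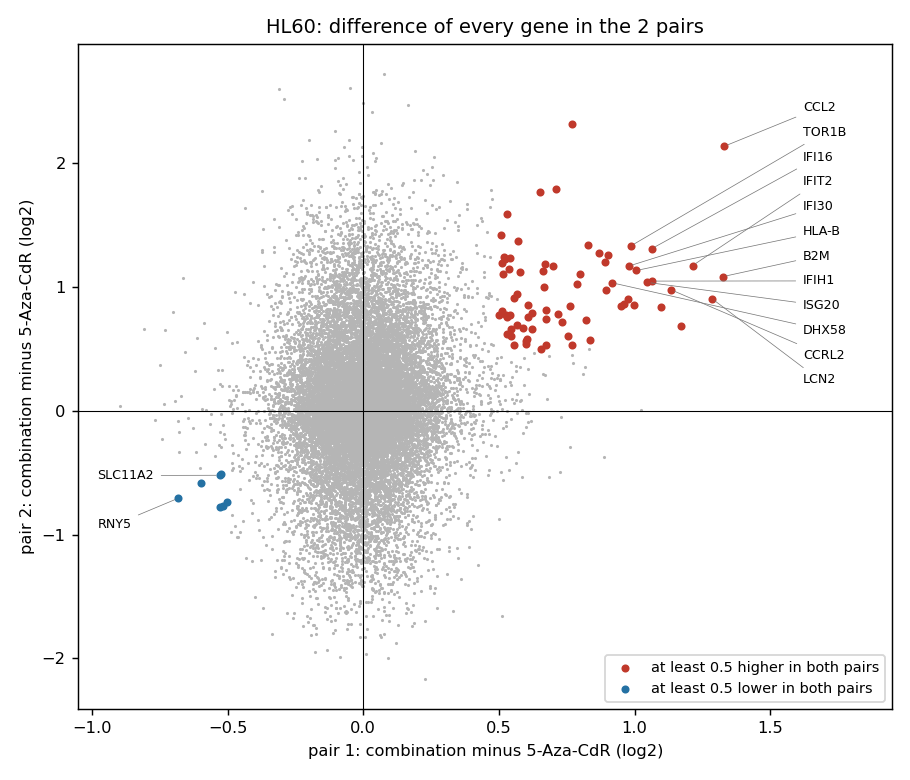
Difference between combination and 5-Aza-CdR (log2) of each of 19402 genes in pair 1 (x axis) and pair 2 (y axis), with the 73 genes at least 0.5 higher in both pairs in red and the 7 at least 0.5 lower in both in blue. The cloud is far taller than it is wide (SD 0.552 in pair 2, 0.158 in pair 1), and the named genes lie apart from it at the right.

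Both arrays numbered 2 differed from both numbered 1, and 5-Aza-CdR array 2 stood furthest from the arrays numbered 1. Combination array 1 and 5-Aza-CdR array 1 had a Spearman correlation across genes of 0.984, and combination array 2 and 5-Aza-CdR array 2 one of 0.875. Arrays of the same treatment correlated less, at 0.846 for the combination and 0.703 for 5-Aza-CdR alone. Combination array 2 and 5-Aza-CdR array 1 were at 0.846, and combination array 1 and 5-Aza-CdR array 2 at 0.700. On the 5-Aza-CdR array 2, 197 genes lay below log2 8 while standing at 9 or more on the other 3 arrays; there were 0 such genes on combination array 1, 3 on combination array 2 and 0 on 5-Aza-CdR array 1. In the other direction, 76 genes stood at 9 or more on the 5-Aza-CdR array 2 while lying below 8 on the other 3; the same count was 0 and 2 for combination arrays 1 and 2, and 0 for 5-Aza-CdR array 1. The median log2 level of cytosolic ribosomal protein genes was 14.76 and 13.78 on combination arrays 1 and 2, against 14.75 and 12.77 on 5-Aza-CdR arrays 1 and 2. Whether this array contributes to the pair 2 differences below was not tested; pair 1 does not use it. The 4 arrays carried the markers of granulocyte precursors: all 10 were measured, with a summed linear level of 218932 and 200170 on the combination arrays, against 241312 and 201584 on the 5-Aza-CdR arrays, and MPO, the myeloperoxidase of azurophil granules, had a log2 of 14.94 to 15.87. KRT19, KRT8, CDH1 and the other 4 measured epithelial markers lay between 7.27 and 7.97, near the lowest values on the arrays.

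**Figure D2:**
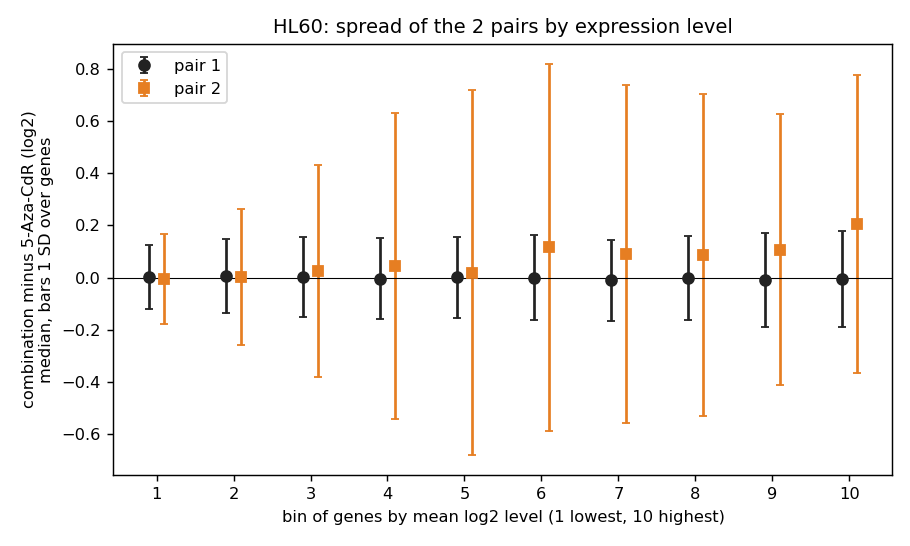
Median difference between combination and 5-Aza-CdR (log2, y axis) in 10 equal bins of the genes ordered by mean level (x axis, 1 lowest), with bars of 1 SD over genes, for pair 1 (black circles) and pair 2 (orange squares). The SD of pair 1 stays between 0.121 and 0.185, while that of pair 2 is 0.172 in bin 1 and 0.703 in bin 6.

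The spread depended on level in pair 2 more than in pair 1. Of 10 equal bins of genes ordered by mean level, the lowest had an SD over genes of 0.121 in pair 1 and 0.172 in pair 2; in bin 6 it was 0.163 and 0.703, and in bin 10 it was 0.185 and 0.571. The extremes of the pairs also read differently in one another. The 20 genes highest in pair 1 had a median of 1.04 in pair 2, and 20 of 20 were above 0 there (0.01 to 2.14). The 20 genes highest in pair 2, between 2.05 and 2.72 there, had a median of -0.00 in pair 1, with 9 of 20 above 0. The 20 genes lowest in pair 1 had a median of 0.05 in pair 2, with 9 of 20 below 0.

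Among the sensors of foreign nucleic acid, 2 RNA helicases and 1 DNA sensor were at least 0.5 higher in both pairs. IFIH1, which detects long double-stranded RNA, had log2 levels of 9.95 and 8.68 on combination arrays 1 and 2, against 8.88 and 7.63 on 5-Aza-CdR arrays 1 and 2. Its differences were 1.07 and 1.05, a mean of 1.06 ± 0.18 (SE, n = 2 pairs), with an adjusted p of 0.895 in limma. The levels of pair 1 were the higher ones in both groups, so the groups overlapped although both differences were near 1 log2 unit. DHX58 (LGP2), a helicase without signalling domains that modulates IFIH1 and DDX58, stood at 9.28 and 8.80 with the combination, against 8.36 and 7.77 with 5-Aza-CdR alone, and here the groups did not overlap. IFI16, which senses DNA in nucleus and cytosol, had 10.82 and 8.94 with the combination, against 9.76 and 7.63 with 5-Aza-CdR alone, with differences of 1.06 and 1.31. AIM2, which assembles an inflammasome on cytosolic DNA, was higher by 0.44 and 1.25. Not every sensor stood with them. DDX58 had differences of 0.11 and -0.24. Its levels were low, at 8.20 and 7.54 with the combination, against 8.09 and 7.79 with 5-Aza-CdR alone, where a difference may not be seen. PYHIN1, of the same family as IFI16, was lower in both pairs, at -0.27 and -0.89. It stood at 8.05 and 8.19 with the combination, against 8.32 and 9.08 with 5-Aza-CdR alone. The highest of these values was on 5-Aza-CdR array 2. Of the 13 double-stranded RNA sensing genes measured, 5 were above 0 and 2 below 0 in both pairs, and the list's medians were 0.02 and 0.05, against -0.00 and 0.05 for all genes. The 11 DNA sensing genes had medians of 0.02 and 0.09, with 5 above and 4 below 0 in both. Above and below 0 in both were 38.5% and 15.4% of the RNA sensing genes and 45.5% and 36.4% of the DNA sensing genes. The shares of all genes were 28.0% and 23.8%.

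Of 21 interferon genes listed 4 were measured, and of 23 receptor and signalling genes 0 were at least 0.5 higher or lower in both pairs. IFNB1, the interferon that RNA sensing induces in most cells, stood between 7.50 and 7.62 on the 4 arrays, near their lowest values, with differences of 0.05 and -0.05. At such levels a difference may not be seen. IRF9, the DNA-binding subunit of the interferon-activated transcription complex, had differences of 0.20 and 0.30. IRF7, the interferon-inducible factor that amplifies interferon production, had the largest difference shared by both pairs in its list. It averaged 9.63 ± 0.25 with the combination and 9.16 ± 0.24 with 5-Aza-CdR alone (SD, n = 2 arrays each); its differences were 0.46 and 0.48, and the groups did not overlap. SOCS3, a feedback inhibitor of cytokine receptors, was at -0.20 and -0.23. Over the 23 genes of receptors, JAK-STAT and IRF factors the medians were 0.04 and 0.18, with 10 above and 3 below 0 in both pairs and 0 at least 0.5 higher.

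Of 49 interferon-stimulated effectors measured, 4 were at least 0.5 higher in both pairs, against 0.376% of all genes, and the list as a whole lay near 0 (medians 0.04 and -0.04). IFIT2, which restricts translation of viral RNA, had log2 levels of 9.53 and 8.76 with the combination, against 8.31 and 7.59 with 5-Aza-CdR alone. Its differences were 1.21 and 1.17 (mean 1.19 ± 0.18 SE, n = 2 pairs), and the groups did not overlap. On 5-Aza-CdR array 2 the levels of IFIT2, IFIT3, IFIH1 and IFI16, and those of CCRL2, IL1B, PTPN1 and some other genes given below, lay under that array's lower quartile of 7.73. No detection calls were used, and 197 genes lay below 8 on that array while at 9 or more on the others. The pair 2 differences of these genes may therefore be too small or too large, and which applies was not tested. ISG20, an interferon-induced exonuclease that degrades RNA, stood at 9.75 and 8.89, against 8.70 and 7.85 with 5-Aza-CdR alone, with differences of 1.05 and 1.04 and no overlap. IFIT3, the partner of IFIT2 in one complex, was higher by 0.89 and 0.98, and NMI, an interferon-induced binding partner of STAT and MYC proteins, by 0.80 and 1.10. Other classical members differed less or were lower in both pairs. MX1, an antiviral GTPase, had 0.44 and 0.40, ISG15, a ubiquitin-like modifier, had -0.07 and -0.30, and IFITM1, which blocks virus entry at membranes, had -0.35 and -0.30. In all, 17 of the 49 were above 0 in both pairs and 11 below, or 34.7% and 22.4%, beside 28.0% and 23.8% of all genes.

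The light chain of MHC class I and some of its heavy chains were among the highest differences, at high levels. B2M, the light chain of every classical MHC class I molecule, had log2 levels of 16.25 and 13.24 with the combination, against 14.93 and 12.15 with 5-Aza-CdR alone. Its differences were 1.33 and 1.08, a mean of 1.21 ± 0.18 (SE, n = 2 pairs) or 2.31-fold, with an adjusted p of 0.895 in limma. The 2 arrays of pair 1 stood above the 2 of pair 2, and the groups overlapped. HLA-B, a heavy chain that presents peptides to CD8 T cells, stood at 15.21 and 13.91 with the combination, against 14.21 and 12.77 with 5-Aza-CdR alone, with differences of 1.01 and 1.13. HLA-C had differences of 0.98 and 0.90. HLA-E, a ligand of NK cell receptors, had 0.27 and 0.31; HLA genes are near-identical, and a probe may not tell them apart. Of 20 class I presentation genes 12 were above 0 in both pairs and 2 below, with medians of 0.11 and 0.30. These are 60% and 10%, beside 28.0% and 23.8% of all genes.

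**Figure D3:**
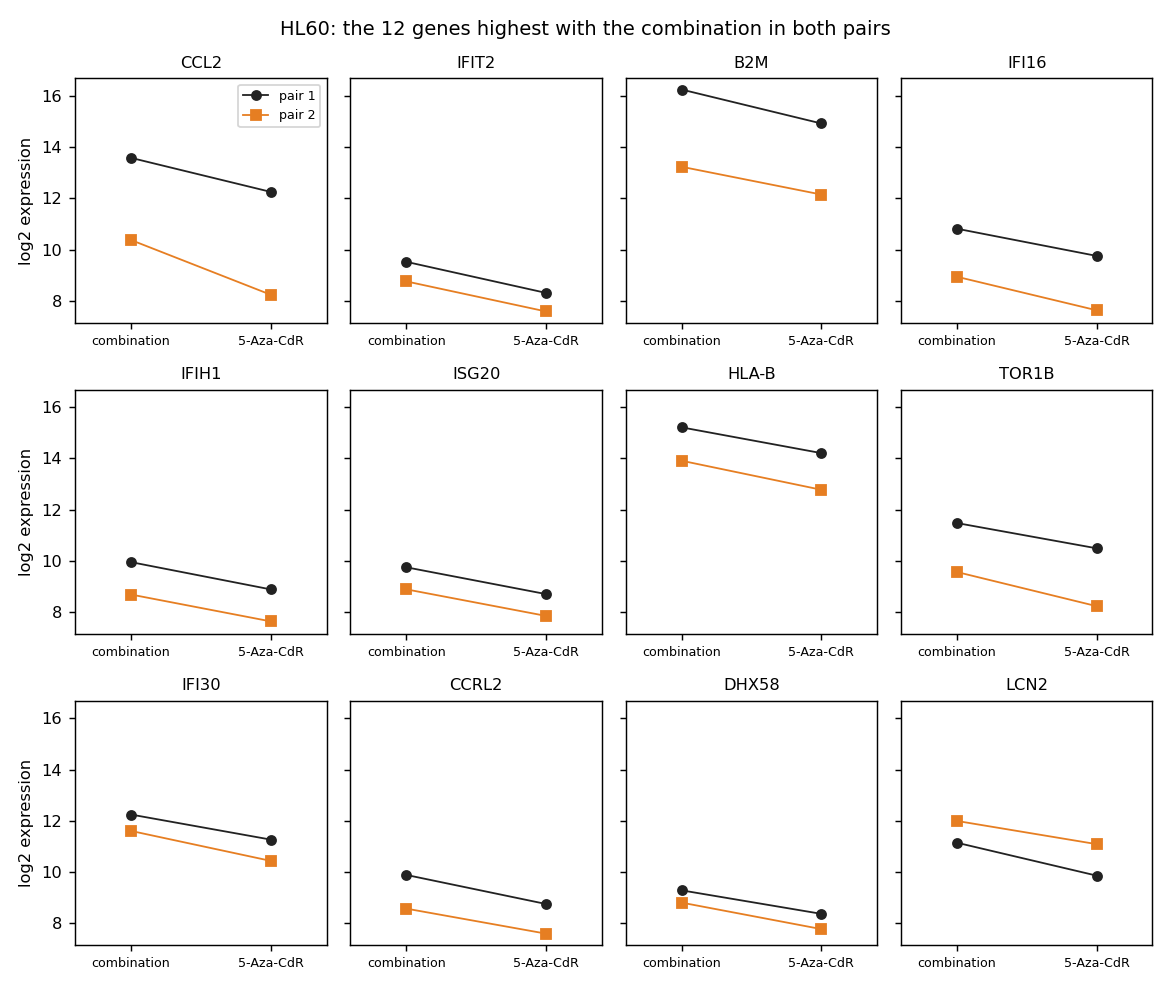
Log2 expression (y axis) on each of the 4 HL60 arrays, combination left and 5-Aza-CdR right, for the 12 genes with the largest difference shared by both pairs; lines join the arrays of pair 1 (black circles) and of pair 2 (orange squares). Every line is higher at the combination end, and pair 1 lies above pair 2 in 11 of the 12 genes, with LCN2 the exception.

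Promoters are shown for the 4 genes of this antiviral and MHC group whose RefSeq entry held a match to an interferon or NF-kappaB motif. RefSeq tables on build GRCh38.p14 held an entry for 8 of the 12 genes, and 250 bases before the start site were read, 5′ to 3′ on the gene's strand. The interferon-stimulated response element was searched as its core GAAANNGAAA and the NF-kappaB site by its consensus, both on either strand. The first was found in 3 of the 8 genes and the second in 4, the fourth being LCN2; of 35116 promoters of the same length, 3.02% held the first and 9.96% the second. Capitals mark the matches, which run into one another in B2M and IFIH1, where interferon motifs overlap, and in HLA-B, where 2 NF-kappaB matches are shifted by 1 base. A match is a description of these letters and not evidence of binding. IFIH1 lies at chr2:162318685-162318934 on the minus strand, B2M at chr15:44711267-44711516 and ISG20 at chr15:88638766-88639015 on the plus strand, and HLA-B at chr6:31357180-31357429 on the minus strand.
IFIH1: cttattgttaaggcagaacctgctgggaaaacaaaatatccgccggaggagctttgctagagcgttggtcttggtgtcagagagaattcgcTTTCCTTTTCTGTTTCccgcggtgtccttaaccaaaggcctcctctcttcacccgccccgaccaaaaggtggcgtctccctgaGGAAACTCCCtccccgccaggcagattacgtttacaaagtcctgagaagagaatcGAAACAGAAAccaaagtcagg
B2M: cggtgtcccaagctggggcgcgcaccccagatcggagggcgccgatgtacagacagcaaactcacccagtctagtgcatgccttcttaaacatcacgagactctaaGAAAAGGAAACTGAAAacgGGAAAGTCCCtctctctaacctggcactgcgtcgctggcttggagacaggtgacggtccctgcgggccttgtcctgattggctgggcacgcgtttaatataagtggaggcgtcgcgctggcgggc
ISG20: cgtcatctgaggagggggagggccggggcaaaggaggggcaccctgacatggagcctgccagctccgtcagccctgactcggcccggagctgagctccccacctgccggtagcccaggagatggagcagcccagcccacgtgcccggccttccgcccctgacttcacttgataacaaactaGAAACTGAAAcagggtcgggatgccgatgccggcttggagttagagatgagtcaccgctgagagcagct
HLA-B: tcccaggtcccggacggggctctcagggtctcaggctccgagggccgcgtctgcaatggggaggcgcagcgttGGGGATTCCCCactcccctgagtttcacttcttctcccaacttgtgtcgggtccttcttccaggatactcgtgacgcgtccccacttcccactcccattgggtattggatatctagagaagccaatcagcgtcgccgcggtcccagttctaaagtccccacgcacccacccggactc

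MHC class II genes, which myeloid cells use to present peptides to CD4 T cells, stood a little higher. CD74, the invariant chain, had 10.25 and 10.59 with the combination, against 9.64 and 9.74 with 5-Aza-CdR alone, with differences of 0.61 and 0.85 and no overlap between groups. Of 9 genes measured 6 were above 0 in both pairs and 1 below (66.7% and 11.1%, beside 28.0% and 23.8% of all genes). The medians were 0.18 and 0.09, against -0.00 and 0.05 for all genes. With the arrays centred on their medians the second was -0.05, against -0.09 for all genes. IFI30, the lysosomal thiol reductase that prepares proteins for class II loading, was among the 12 highest, at 12.24 and 11.60 with the combination, against 11.26 and 10.43 with 5-Aza-CdR alone. Both combination arrays lay above both 5-Aza-CdR arrays for IFI30, and its differences were 0.98 and 1.17.

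CCL2, the chemokine that draws monocytes, had the highest difference shared by both pairs of any gene. It stood at 13.59 and 10.38 with the combination, against 12.26 and 8.24 with 5-Aza-CdR alone. The differences of 1.33 and 2.14 average 1.73 ± 0.26 (SE, n = 2 pairs), or 3.32-fold, with an adjusted p of 0.895 in limma. Levels on array 2 were lower than on array 1 in each group, so the groups overlapped. IL1B, the inflammasome-processed cytokine, had 12.39 and 8.85 with the combination, against 11.49 and 7.59 with 5-Aza-CdR alone. CCL20, a chemokine for immature dendritic cells and Th17 cells, was higher by 0.70 and 1.17, and IL8, the neutrophil chemokine CXCL8, by 0.67 and 0.53. CCRL2, an atypical receptor that binds chemerin, stood at 9.88 and 8.57 with the combination, against 8.75 and 7.59 with 5-Aza-CdR alone. Of 26 chemokine and cytokine genes 14 were above 0 in both pairs and 6 below (53.8% and 23.1%, beside 28.0% and 23.8% of all genes). At least 0.5 higher in both were 4 (15.4%, beside 0.376%), and the medians were 0.28 and 0.20.

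The list of NF-kappaB genes had medians above those of all genes in both pairs. NFKB1, the precursor of the p50 subunit, had 12.99 and 11.97 with the combination, against 12.31 and 11.22 with 5-Aza-CdR alone, with differences of 0.67 and 0.74. The subunit RELB had 0.27 and 1.63, and IER3, an early response gene that NF-kappaB induces, had 1.00 and 0.86. IER3 stood at 11.84 and 11.20 with the combination, against 10.84 and 10.34 with 5-Aza-CdR alone, without overlap. RIPK2, the kinase that links NOD receptors to NF-kappaB, was higher by 0.82 and 0.74. The inhibitor NFKBIA did not share a sign, at 0.45 and -0.19. Of 24 NF-kappaB genes 13 were above 0 in both pairs and 1 below, with medians of 0.17 and 0.31. These are 54.2% and 4.2%, beside 28.0% and 23.8% of all genes. The immediate early factors EGR1 and EGR2, which growth signals induce, were higher by 1.10 and 0.84 and by 0.61 and 0.34.

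Among myeloid genes the differences were mixed. The median differences in pairs 1 and 2 were 0.35 and 0.01 over the monocyte and macrophage markers, 0.26 and -0.03 over those of maturing neutrophils, and -0.06 and 0.17 over those of granulocyte precursors. LCN2, a siderophore-binding protein of secondary granules, stood at 11.14 and 11.99 with the combination, against 9.86 and 11.09 with 5-Aza-CdR alone, with differences of 1.29 and 0.91. It was the 1 gene of the 12 with higher levels on the arrays numbered 2, and its groups did not overlap. MMP9, the gelatinase of tertiary granules, was higher by 1.17 and 0.69, and DEFA4, a defensin of azurophil granules, by 0.76 and 0.85. CD14, the monocyte co-receptor for lipopolysaccharide, stood at 12.26 and 11.69 with the combination, against 11.50 and 11.09 with 5-Aza-CdR alone, with differences of 0.76 and 0.61. LYZ, lysozyme, had 0.60 and 0.56, and S100A12, a calcium-binding alarmin of neutrophils, had 0.60 and 0.54. ELANE, the neutrophil elastase of azurophil granules, had 15.04 and 15.02 with the combination, against 15.62 and 15.29 with 5-Aza-CdR alone, with differences of -0.58 and -0.27 and no overlap. MPO had differences of 0.00 and 0.17.

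The summed linear level of 7 monocyte and macrophage markers was 18954 and 7903 on the combination arrays, against 13045 and 7773 on the 5-Aza-CdR arrays. Of these, 3 were above 0 in both pairs, CD14 and LYZ among them, and 1 was below, CD163 (-0.17 and -1.14). For 7 markers of maturing neutrophils the summed level was 13431 and 11572 with the combination, against 9411 and 9595 with 5-Aza-CdR alone. LCN2, MMP9 and ITGAM among them were above 0 in both pairs, and 0 were below. In such bulk samples a change in the share of maturing cells and a change in RNA per cell cannot be told apart, and the part of these markers in the differences above was not tested. The transcription factors of the lineage differed little: SPI1 (PU.1) had 0.20 and 0.06, CEBPA -0.09 and 0.49, CEBPE 0.07 and 0.38, and CEBPB, which acts in monocytes and emergency granulopoiesis, 0.38 and 0.40. By list, 13 of 26 granule genes, 12 of 26 myeloid transcription factors, 22 of 36 phagocyte genes and 9 of 13 S100 and annexin genes were above 0 in both pairs, beside 28.0% of all genes. Below 0 in both were 3, 4, 4 and 0 of them, beside 23.8%.

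Natural killer receptor genes, normally silenced by promoter methylation in cells that do not use them, were grouped after their values had been seen. Of 10 KIR symbols measured, 7 were above 0 in both pairs, 0 below, and 3 were at least 0.5 higher. The shares of all genes were 28.0%, 23.8% and 0.376%. KIR2DL3 stood at 9.49 and 8.84 with the combination, against 8.81 and 8.02 with 5-Aza-CdR alone. KIR2DL4 was higher by 0.61 and 0.76, and KIR3DL1 by 0.55 and 0.60. KIR3DL1 was dim, at 7.68 on 5-Aza-CdR array 2, under that array's lower quartile of 7.73. These copies are near-identical and a probe may not tell them apart. NCR3, an activating receptor of NK cells, had 0.52 and 1.25, and CD3D, a chain of the T cell receptor complex, had 0.54 and 1.23. Of the 7 measured markers of T and NK cells, CD3D among them, 2 were above 0 in both pairs and 2 below. The summed linear level of those 7 was 5537 and 8932 with the combination, against 5681 and 7704 with 5-Aza-CdR alone, CD5 lay between 7.38 and 7.58 on the 4 arrays, and NKG7 lay between 11.58 and 12.40.

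Germline genes, another class that DNA methylation keeps silent, showed no common direction in HL60. DAZL, an RNA-binding protein of germ cells, had 11.03 and 8.87 with the combination, against 10.36 and 7.68 with 5-Aza-CdR alone, with differences of 0.67 and 1.19. RHOXF1, an X-linked homeobox gene of the testis, was higher by 0.52 and 1.22 and MAGEA8, a cancer-testis antigen, by 0.38 and 0.36. SSX3, a cancer-testis antigen, was lower, at 7.75 and 7.96 with the combination, against 8.27 and 8.47 with 5-Aza-CdR alone. Of 61 genes measured 16 were above 0 in both pairs and 15 below, with medians of -0.01 and 0.02. These are 26.2% and 24.6%, beside 28.0% and 23.8% of all genes. Of 17 measured genes in the list of DNA methyltransferases, TET enzymes and related factors 4 (23.5%) were above 0 in both pairs and 5 (29.4%) below. The medians were -0.03 and 0.10. DNMT1, the maintenance methyltransferase, had -0.08 and 0.65, DNMT3B -0.07 and 0.37, and TET1, a dioxygenase that oxidises methylcytosine, -0.20 and 0.95. TET3 had 0.05 and -0.08. DNMT3A, a de novo methyltransferase, had 0.01 and 0.82, and UHRF1, which guides DNMT1 to new DNA, had -0.08 and -0.25. CDA, the deaminase that inactivates 5-Aza-CdR, was higher by 0.44 and 0.55, at 11.08 and 10.35 with the combination, against 10.63 and 9.81 with 5-Aza-CdR alone.

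**Figure D4:**
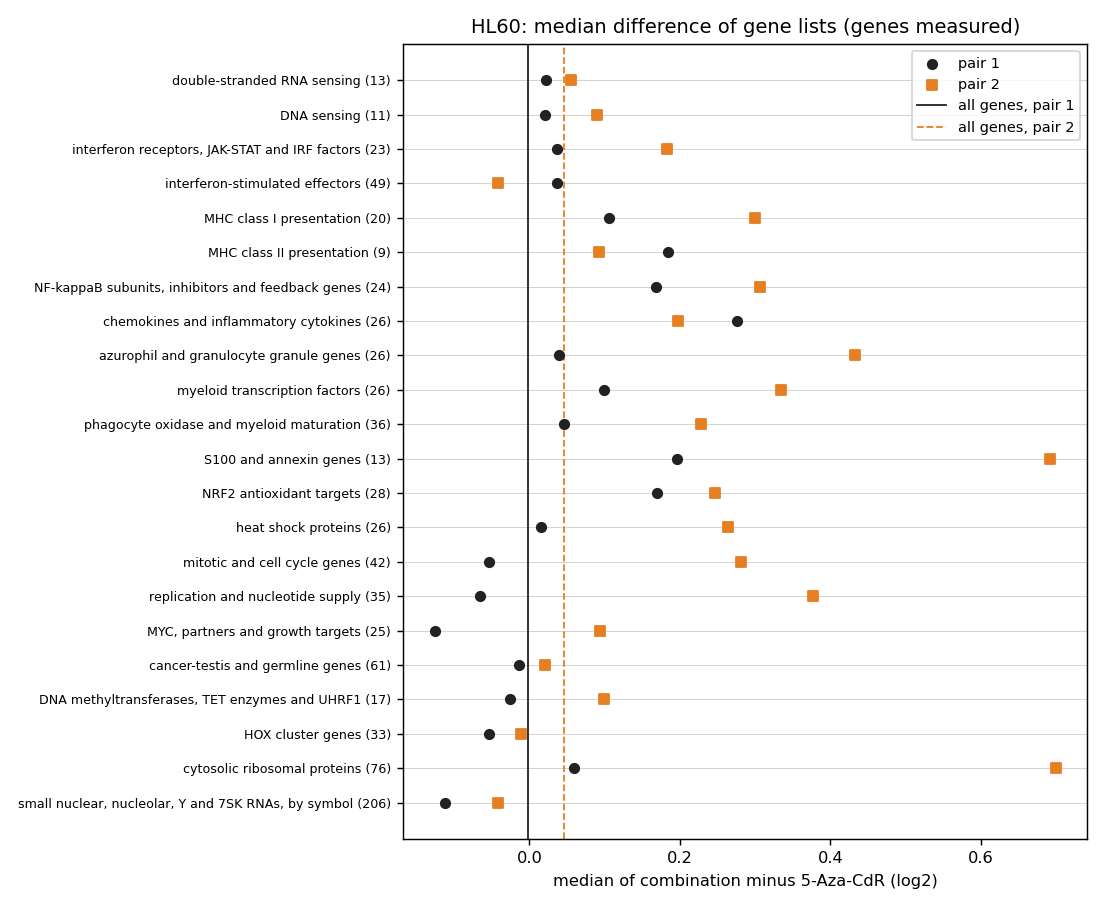
Median difference between combination and 5-Aza-CdR (log2, x axis) of 22 gene lists in HL60, with the number of genes measured in brackets, for pair 1 (black circles) and pair 2 (orange squares); vertical lines give the medians of all genes. S100 and annexin genes lie right of both lines (0.20 and 0.69), ribosomal protein genes stand far right in pair 2 alone (0.06 and 0.70), and interferon-stimulated effectors lie near 0 in both.

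Targets of the antioxidant factor NRF2 and ferritin genes of iron storage also had medians above those of all genes in both pairs. Of 28 NRF2 targets 16 were above 0 in both pairs and 1 below (57.1% and 3.6%, beside 28.0% and 23.8% of all genes), with medians of 0.17 and 0.25. Their medians were 0.12 and 0.11 in SNU398 and 0.20 and 0.30 in HCT116. HMOX1, which degrades haem, had differences of 0.40 and 1.05, AKR1C3, an aldo-keto reductase, 0.77 and 0.45, NQO1, a quinone reductase, 0.67 and 0.29, and GCLM, of glutathione synthesis, 0.30 and 0.28. Of 9 symbols for ferritin heavy chain copies, mostly pseudogenes that a probe may not tell from the functional gene, 7 (77.8%) were above 0 in both pairs. Below 0 in both were 0, and the medians were 0.44 and 0.53. These copies were grouped by symbol, apart from the 43 lists. Their medians were also above 0 in SNU398 (0.40 and 0.30) and in HCT116 (0.37 and 0.20). The copy FTHL12 stood at 12.93 and 11.38 with the combination, against 12.36 and 10.68 with 5-Aza-CdR alone.

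Growth genes differed between the pairs. Mitotic genes had medians of -0.05 and 0.28 (42 genes), replication and nucleotide supply genes -0.07 and 0.38 (35 genes), and MYC with its partners and targets -0.13 and 0.09 (25 genes). MYC itself had 12.82 and 9.73 with the combination, against 13.09 and 9.15 with 5-Aza-CdR alone, differences of -0.27 and 0.58. CENPF, a kinetochore protein, and MAD2L1, of the spindle checkpoint, were lower in both pairs, at -0.30 and -0.29 and at -0.24 and -0.20. The 76 ribosomal protein genes had medians of 0.06 and 0.70, and the 71 subunits of oxidative phosphorylation 0.01 and 0.41. The part of 5-Aza-CdR array 2 in these values was not tested.

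Further genes among the 73 have other roles. TOR1B, an ATPase of the nuclear envelope and endoplasmic reticulum, stood at 11.47 and 9.56 with the combination, against 10.49 and 8.23 with 5-Aza-CdR alone, with differences of 0.99 and 1.33. ACP5, the tartrate-resistant phosphatase of osteoclasts and macrophages, stood at 9.25 and 9.59, against 8.29 and 8.72 with 5-Aza-CdR alone, without overlap. MTHFD2, a mitochondrial enzyme of folate metabolism, was higher by 0.87 and 1.28, ELF1, an ETS transcription factor, by 0.95 and 0.85, PTPN1, a phosphatase that dampens JAK signalling, by 0.71 and 1.79, SERPINB2, a protease inhibitor of activated monocytes, by 0.73 and 0.72, and PLIN2, which coats lipid droplets, by 0.67 and 1.00. PPP1R2P9, a copy of a phosphatase inhibitor gene, stood at 9.21 and 9.89 with the combination, against 8.45 and 7.57 with 5-Aza-CdR alone (0.77 and 2.32).

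The 7 genes at least 0.5 lower in both pairs, 1 of which is not reported here, include 2 small RNAs. RNY5, a Y RNA bound by the Ro protein, had 11.01 and 11.14 with the combination, against 11.70 and 11.84 with 5-Aza-CdR alone. Its differences were -0.68 and -0.71, a mean of -0.69 ± 0.18 (SE, n = 2 pairs) with an adjusted p of 0.895 in limma, and the groups did not overlap. RNU5A, a spliceosomal small nuclear RNA, stood at 8.84 and 8.29, against 9.35 and 9.06 with 5-Aza-CdR alone (-0.52 and -0.77). Of 206 small nuclear, nucleolar, Y and 7SK RNA symbols 24 were above 0 in both pairs and 83 below, which is 11.7% and 40.3% beside 28.0% and 23.8% of all genes, with medians of -0.11 and -0.04. SLC11A2, the iron transporter DMT1, had 9.42 and 11.25 with the combination, against 9.95 and 11.77 with 5-Aza-CdR alone, with differences of -0.53 and -0.52. LOC441087 (-0.53 and -0.78) and HS.42612 (-0.60 and -0.58) are not annotated further here, and PLIN5, a lipid droplet protein, was at -0.47 and -1.02. HOX cluster genes, which pattern the body axis and mark immature blood cells, were below 0 in both pairs at 14 of 33 symbols and above at 5. These are 42.4% and 15.2%, beside 23.8% and 28.0% of all genes, and the medians were -0.05 and -0.01.

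The 12 genes highest in HL60 were read in the other lines at the same contrast. CCL2 had differences of -0.14 and -0.00 in SNU398 and -0.16 in pair 1 of HCT116, where pair 2 holds no value. IFIT2 was higher in both other lines too, by 0.50 and 0.60 in SNU398 and by 0.33 and 0.77 in HCT116, as was IFIH1, by 0.31 and 0.38 in SNU398 and by 1.13 and 1.06 in HCT116. HLA-B had 0.07 and 0.03 in SNU398 and 0.24 and 0.15 in HCT116. The difference between HL60 and SNU398 was 1.80 ± 0.30 for CCL2 and 1.35 ± 0.20 for TOR1B (SE, 2 pairs per line), each with an adjusted p of 0.766 in limma. Some effectors had their smallest differences in HL60. MX1, at 0.44 and 0.40 in HL60, had 1.32 and 1.07 in SNU398 and 1.44 and 1.45 in HCT116. IFI27, an interferon-inducible mitochondrial protein, had 0.06 and -0.10 in HL60, 1.16 and 1.41 in SNU398 and 0.86 and 1.13 in HCT116. IFI27 lay between 7.69 and 7.84 on the HL60 arrays, close to their lower quartiles, where a difference may not be seen. REC8, a meiotic cohesin subunit, had 0.05 and -0.07 in HL60 and 1.38 and 1.46 in SNU398, a difference of -1.43 ± 0.15 (SE) with an adjusted p of 0.766 in limma. limma called 0 of 19402 genes (0%) for HL60 minus SNU398, with 552 at an unadjusted p under 0.05, and 0 of 12349 (0%) for HL60 minus HCT116, with 163. Without HL60 pair 1 these counts were 8540 and 137, and without HL60 pair 2 they were 126 and 0.

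**Figure D5:**
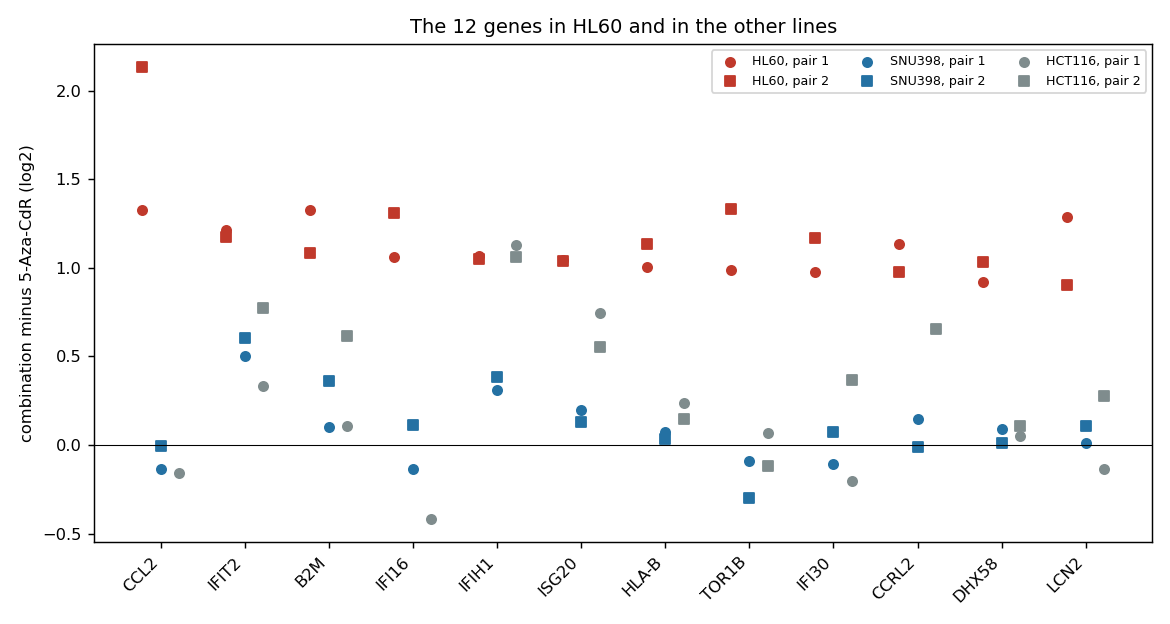
Difference between combination and 5-Aza-CdR (log2, y axis) of the 12 genes highest in both HL60 pairs, in HL60 (red), SNU398 (blue) and HCT116 (grey), with circles for pair 1 and squares for pair 2; CCL2 and IFI16 have no pair 2 value in HCT116. The HL60 points lie above those of SNU398 for each of the 12 genes, which were chosen for their HL60 values, and IFIH1 reaches 1.13 and 1.06 in HCT116.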

How the data were processed

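Total RNA was hybridised to Illumina bead arrays after linear amplification, per the labels' protocols. The authors deposited 1 log2 expression value per gene symbol and array; the log2 unit was read from the range of the values. The submitters' processing notes name limma without a version, and how background, scaling and the choice of probe per symbol were handled is not given in the sources used here. A further table of bead-level signals was not used, because its 44 column names match no sample. Of the 19402 HL60 symbols, 12679 matched a current RefSeq symbol, 2246 a synonym and 4477 neither; 1082 of 1204 genes in 43 lists were measured. Symbols are printed as deposited.

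Arrays were paired by the replicate numbers of the labels. Within a line, same-numbered arrays deviated together from their group means, with r = 0.883 in HL60, 0.841 in SNU398 and 0.907 in HCT116. The pair differences were fitted with limma 3.58.1 (lmFit, then eBayes) under R 4.3.3, with 1 residual degree of freedom per gene and Benjamini-Hochberg adjustment over all genes; tests were two-sided. The SE it gives comes mainly from the spread moderated over genes. Differences between lines were tested on the pair differences of both lines, reading exact zeros on HCT116 arrays as not measured. The fits were tested on simulated data in which both pairs of a gene had the same spread and planted changes were larger than most differences given here. That simulation does not cover pairs of unequal spread such as those of HL60. Alternatives changed the pairing, the samples, the scaling, a filter on dim genes and the variance model. The number of arrays limits the precision.

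Members, lists and tests were chosen with earlier results of these data known. Genes are named by rule: the 12 highest and 12 lowest by the smaller of the 2 pair differences, the 5 smallest p, up to 4 members of each list described, and fixed marker and pathway genes; others outside it were chosen after their values were seen. Some genes that the rule names are not reported here, and TET2 has no HL60 value.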

Additional observations from a re-analysis of the deposited data

Results flagged for a closer look

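In each of the 3 genes flagged here, both HL60 pairs lay on one side of 0 and both SNU398 pairs on the other. Other genes shared this pattern: ELF1 had 0.95 and 0.85 in HL60 and -0.20 and -0.34 in SNU398. CCL2 had 1.33 and 2.14 in HL60 and -0.14 and -0.0035 in SNU398, a difference of 1.80 between the lines. Its SNU398 pair 2 value is so close to 0 that its sign carries little weight. TOR1B had 0.99 and 1.33 in HL60 and -0.09 and -0.30 in SNU398, a difference of 1.35. SSX3 had -0.52 and -0.51 in HL60 and 0.16 and 0.18 in SNU398, a difference of -0.69. The difference between lines was tested in limma on the pair differences, and each of the 3 had an adjusted p of 0.766.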

How the results depend on the processing

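The design limits what can be called: 2 pairs leave 1 residual degree of freedom, and pair 2 has an SD over genes of 0.552 against 0.158 in pair 1. limma called 0 genes in HL60 without the replicate block (smallest adjusted p 1.00 on all 12 arrays and on the 4 HL60 arrays), with the replicate block over all 6 pairs (0.392), under each scaling, among the 7869 genes whose mean log2 reached 9, and with a trend and robust variance. Leaving out a pair or an array gave 0 to 4503 calls; the 4503 came from pair 2 alone (without replicate 1), whose spread was assumed to be that of the other lines' pairs. The counts were 126 to 8540 for HL60 minus SNU398 and 0 to 137 for HL60 minus HCT116 when either HL60 pair was left out. Genes at least 0.5 higher in both pairs numbered 45 with that filter, and 137 to 3468 in 1 pair alone. Those at least 0.5 lower numbered 12 after cyclic loess, 4 with that filter, and 49 to 2529 in 1 pair alone. Of 106 genes named, all kept their sign and stayed uncalled without the replicate block, with it over 6 pairs, after centring, after quantile normalization and with the trend, as did the 64 that passed the filter on dim genes. Cyclic loess turned MPO (-0.087) and IFNB1 (0.014). In 1 pair alone these turned, given from the lower to the higher pair value: DNMT1 -0.077 to 0.65, DNMT3B -0.069 to 0.37, TET1 -0.20 to 0.95, TET3 -0.082 to 0.049, CEBPA -0.089 to 0.49, MYC -0.27 to 0.58, DDX58 -0.24 to 0.11, NFKBIA -0.19 to 0.45, IFNB1 -0.050 to 0.046, REC8 -0.072 to 0.052 and IFI27 -0.096 to 0.062. The cause was not tested.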

Other observations

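Some groups stood above the medians of all genes without a call in limma. Of 26 heat shock genes 13 were above 0 in both HL60 pairs and 4 below (50% and 15.4%, beside 28.0% and 23.8% of all genes). HSPA1A, the inducible HSP70 chaperone, stood at 9.75 and 8.90 with the combination, against 8.96 and 7.87 with 5-Aza-CdR alone (0.79 and 1.03), and HSPE1, the mitochondrial co-chaperonin, differed by 0.44 and 1.12. Among S100 and annexin genes, ANXA1, a mediator that limits inflammation, had 0.24 and 0.87 and S100A6 had 0.55 and 0.28. NCF1, a cytosolic subunit of the phagocyte oxidase, had 0.38 and 1.67, the chemokine CCL3 had 0.83 and 0.50, and its receptor CCR1 had 0.54 and 1.15. TNFAIP2, induced by TNF in myeloid cells, had 0.31 and 0.88. HLA-DQA1, an MHC class II chain, had 0.49 and 0.26, at low levels between 7.42 and 8.13.

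Further genes at least 0.5 higher in both pairs were GSTM1, a glutathione transferase (0.60 and 0.58), XK, a membrane protein of red cells (0.83 and 1.34), BTG2, an antiproliferative gene (0.51 and 1.20), and the ferritin copies FTHL8 (0.51 and 0.80) and FTHL11 (0.55 and 0.53). CDKN1A, the cell cycle inhibitor p21, was lower in both pairs (-0.13 and -0.40). Further genes among the 12 lowest were LOC100134785 (-0.49 and -0.98), ALPI, the intestinal alkaline phosphatase (-0.49 and -0.84), LOC400558 (-0.47 and -0.93) and HS.539941 (-0.49 and -0.48).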
